A study of Mus musculus with 14 samples.

Results

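Ubiquitin-specific proteases, which the gene symbols call Usp followed by a number, were examined for m6A peaks and mRNA decay in mouse embryonic stem cells (mESCs). The genes were taken by symbol alone, Usp with a number and at most 1 further letter, which gave 50 of the 52459 genes in the count tables. Of these, 43 had a mean level of at least 1 FPKM (counts scaled by exon length and by the summed counts of the library) over the WT and R255K libraries at 0 h and are called measured, out of 11869 measured genes in all. The other 7 were Usp2, Usp9y, Usp18, Usp26, Usp29, Usp50 and Usp53. The cells were the established mESC line E14Tg2a, wild type (WT) or carrying the METTL14 R255K knock-in, in which an arginine codon of the m6A methyltransferase subunit METTL14 was changed to a lysine codon by CRISPR-Cas9. Both genotypes were grown on gelatin in serum with LIF, and the study's methods describe picking colonies after editing but do not say how many clones the libraries came from. MeRIP-seq, in which RNA fragments bound by an m6A antibody (IP) are sequenced beside the unselected input, had 2 IP and 2 input libraries per genotype, and its result was 1 list of peaks per genotype. The mRNA lifetime experiment had 6 libraries, 1 per genotype and time, from cells kept for 0, 4 or 8 h in 5 µg/ml actinomycin D, which blocks transcription; how far it did so in each genotype was not measured here.

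Ubiquitin-specific proteases form the largest family of deubiquitinases. They are cysteine proteases that cut ubiquitin from proteins or trim ubiquitin chains, and so spare substrates from the proteasome or reverse signals carried by ubiquitin on histones, receptors and DNA repair factors. N6-methyladenosine (m6A) is placed on mRNA by the METTL3 and METTL14 complex at a preferred sequence around GGAC, most often in long exons and near stop codons, and transcripts that carry it tend to be degraded sooner.

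The strongest peaks on Usp exons showed where these transcripts were called as methylated, and the windows printed here set strong WT peaks that had no overlapping R255K peak against strong ones that had one, in each set the strongest peak of a gene and then the 6 highest genes. Each window of 29 bases reads along the mRNA strand of the GRCm38 genome (the build of mm10) and is centred on the GGAC nearest to the summit of the WT peak, with that GGAC in capitals. The 6 WT peaks without an R255K counterpart had fold enrichments of IP over local background between 7.45 (Usp49) and 10.1 (Usp29).
Usp29: gaagctaccatttcccttggctaatacat
Usp46: taggtgaaaactGGACtccttatttctga
Usp20: caccgatgctcgGGACtccgattccagtg
Usp25: gataaactgcccGGACttcccagggtcac
Usp24: aggctgccctccGGACtgccctcctgccc
Usp49: agatgacaacctGGACagtgctgactggc
The Usp29 window, chr7:6962782-6962810 on the plus strand, had no GGAC within 100 bp of the summit and is centred on the summit. The others lie at chr5:74000460-74000488 (Usp46, minus strand, 3′UTR), chr2:31010249-31010277 (Usp20, plus, coding sequence), chr16:77115558-77115586 (Usp25, plus, 3′UTR), chr4:106440952-106440980 (Usp24, plus, 3′UTR) and chr17:47684431-47684459 (Usp49, plus, 3′UTR). The 6 strongest WT peaks that an R255K peak overlapped, 1 per gene, had fold enrichments between 13.9 (Usp16) and 53.4 (Usp35).
Usp35: cagtgaaggtgtGGACaccataggcactg
Usp13: agcagatgcggaGGACtacatgggtactt
Usp53: taggtgtagcaaGGACcagagttttaata
Usp2: ccctcgggcagtGGACtcaacggaggcag
Usp54: caggtgaaggaaGGACagctttggcacct
Usp16: ggaaagcccagaGGACctaggagtgaaaa
These lie at chr7:97312231-97312259 (Usp35, minus strand, coding sequence), chr3:32933344-32933372 (Usp13, plus, 3′UTR), chr3:122949410-122949438 (Usp53, minus, coding sequence), chr9:44075710-44075738 (Usp2, plus, coding sequence), chr14:20607416-20607444 (Usp54, minus, 5′UTR) and chr16:87479362-87479390 (Usp16, plus, coding sequence). Both sets held GGAC followed by T (Usp46, Usp20, Usp25 and Usp24 in the first, Usp13 and Usp2 in the second).

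Summed counts ran from 13812160 to 17428469 in the WT libraries and from 15642076 to 18813640 in the R255K libraries, and a single library per genotype and time leaves no replicate check, so no p-value is given and the errors cover counting only. In bulk RNA, fewer cells of a type and less RNA per cell cannot be told apart. All 8 pluripotent cell markers were measured, with a summed level of 2460 to 2810 FPKM in the WT and 1996 to 2420 FPKM in the R255K libraries. Of 6 fibroblast markers only Thy1 was measured, Lum was at 0 in all 6 libraries, and the sum was 1.66 to 2.21 FPKM in WT against 5.96 to 7.19 in R255K; 5 of 9 differentiated cell markers were measured, with a sum of 3.41 to 22.5 FPKM in WT and 9.45 to 16.6 in R255K. At 0 h Sox1 stood at 13.4 FPKM in WT and 1.76 in R255K, and Nes at 1.84 and 6.39. The part of these cells in the Usp values was not tested. Mettl14 itself stood at 5.27 FPKM in WT and 2.58 in R255K at 0 h, and a codon change cannot be checked from its count. The pair of 0 h libraries stood apart by base composition: over all measured genes the log2 ratio of R255K to WT at 0 h followed the GC content of the exons (Spearman 0.40 over 11869 genes), so the main decay comparisons are also given from 4 to 8 h. That span was not free of a GC trend: over the same genes the change from 4 to 8 h had a Spearman coefficient with GC content of 0.31 in R255K and 0.11 in WT. The role groups below are given from 0 to 8 h, and only the UAF1 partners also from 4 to 8 h.

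Usp mRNAs were present at moderate levels, with a median of 6.33 FPKM at 0 h (mean of both genotypes) against 8.23 for all measured genes. Their exons were long, with a median of 7.05 kb against 3.74 kb, and poorer in GC, with 47.1% against 49.9%. The most abundant was Usp39, a spliceosome protein that lacks the catalytic residues of the family, with 66.3 FPKM in WT and 85.2 in R255K. Usp7, which acts on p53 and its ligase MDM2, had 83.8 and 48.1 FPKM. Usp5, which takes apart free ubiquitin chains, had 58.3 and 66.9 FPKM. Usp22, the deubiquitinase of the SAGA complex that works on histone H2B, had 45.0 and 71.3 FPKM. Usp1, which with its partner UAF1 removes ubiquitin from PCNA and FANCD2, had 57.4 and 27.9 FPKM. At the other end of the measured genes, Usp49 had 1.39 and 0.760 FPKM.

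**Figure D1:**
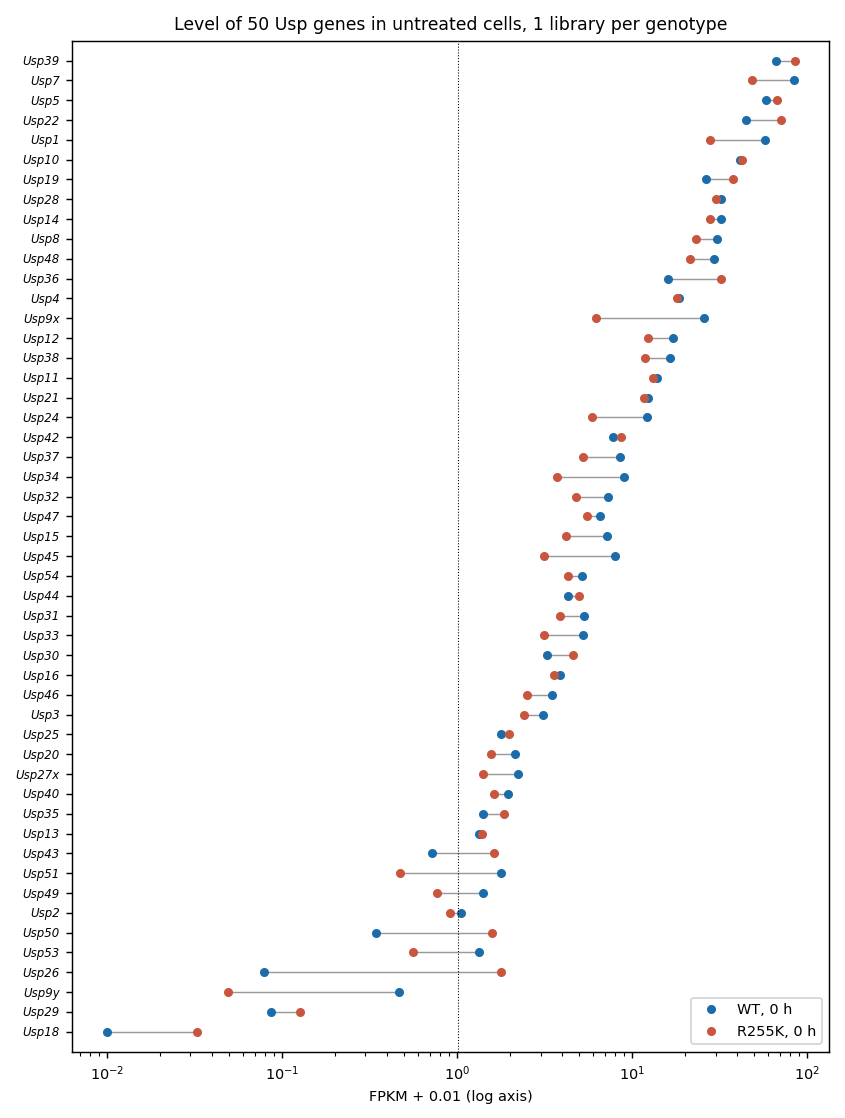
Level of each of the 50 Usp genes at 0 h (FPKM on a log axis, with a small offset so that 0 can be drawn), blue for the WT library and red for the R255K library, joined by a line. The dotted line marks the minimum of 1 FPKM; Usp39, Usp7 and Usp5 stand at the top and Usp18 at the bottom.

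The 7 genes that were not measured were listed at low counts rather than missing. Usp18, the protease for the ubiquitin-like protein ISG15, had 0 counts in the 3 WT libraries and 1 in each R255K library. At 0 h the WT and R255K libraries held 24 and 33 counts of Usp29, 18 and 76 of Usp50, 289 and 109 of Usp53, and 88 and 68 of Usp2. Usp26, an X-linked gene known from testis, went from 5 to 3 and 1 counts over the time course in WT and from 115 to 339 and 233 in R255K. All 3 R255K libraries lay above all 3 WT libraries for Usp26. Usp9y, the Y-linked relative of Usp9x, showed the opposite order, going from 64 to 49 and 26 counts in WT and from 5 to 17 and 13 in R255K.

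At 0 h the R255K library held less Usp mRNA than the WT library for 30 of the 43 measured genes (69.8%, against 46.5% of all measured genes), with a median log2 ratio of FPKM + 1 of −0.22 (95% interval of the median −0.43 to −0.06) against 0.05 for all measured genes (scaled to Gapdh, both were positive, 1.015 against 1.37). A difference of over 1.5-fold was seen for 13 of them. The R255K level was that much higher for 3 (6.98%, against 17% of all measured genes) and that much lower for 10 (23.3%, against 15.7%). With the length trend of all genes removed, 4 were higher and 4 lower (against 16.5% and 13.6% of all measured genes), with a median of −0.024. Scaled to Gapdh, 36 were higher and 1 lower (against 85.0% and 1.29% of all measured genes). The 10 were Usp1, Usp7, Usp9x, Usp15, Usp24, Usp33, Usp34, Usp37, Usp45 and Usp51, and the 3 were Usp22, Usp36 and Usp43.

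Usp9x, a large X-linked enzyme with SMAD4 and MCL1 among its substrates, differed most, with 25.9 FPKM in WT and 6.18 in R255K at 0 h. The log2 ratio was −1.91 ± 0.037 (counting SE). Usp45, which acts on the repair nuclease subunit ERCC1, had 7.99 and 3.12 FPKM, a log2 ratio of −1.13 ± 0.076. Usp34, which stabilises axin in Wnt signalling, had 8.96 and 3.70 FPKM (−1.08 ± 0.042). Usp1 followed with −1.02 ± 0.042, and Usp24 with 12.1 and 5.88 FPKM and −0.93 ± 0.045. All 5 were lower in the R255K library by many times their counting error, which does not cover scaling or base composition. With the GC trend of all genes removed, Usp45 (−0.54) and Usp34 (−0.44) were within 1.5-fold, while Usp9x (−1.30), Usp24 (−0.82) and Usp1 (−0.73) were not. Scaled to Gapdh, Usp9x stayed lower (−0.61), and Usp45 (0.07), Usp34 (0.14), Usp24 (0.37) and Usp1 (0.39) did not. In the other direction, Usp36, a nucleolar enzyme that serves ribosome synthesis and also acts on Myc, had 15.98 FPKM in WT and 32.01 in R255K (0.96 ± 0.037). The log2 ratio of Usp22 was 0.65 ± 0.030. Usp43 had 59 counts in WT and 120 in R255K (0.61 ± 0.11). Usp19, anchored in the endoplasmic reticulum, stood at 26.5 and 37.6 FPKM (0.49 ± 0.033), and Usp30, which sits on the outer mitochondrial membrane and counters mitophagy, at 3.25 and 4.59 FPKM (0.40 ± 0.082).

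These 0 h ratios moved with base composition and with position. Over the 43 genes the log2 ratio rose with GC content (Spearman 0.68, all points from the same pair of libraries). The 14 Usp genes below 45.1% GC had a median of −0.57 and the 4 above 54.5% a median of 0.37, against −0.38 and 0.27 for all measured genes in those classes. With the GC trend of all genes removed, 1 of the 43 Usp genes was over 1.5-fold higher (against 15.1% of all measured genes) and 5 were lower (against 11.6%). The 3 genes that were higher, Usp36, Usp22 and Usp43, all lie on chromosome 11, where the median over 984 measured genes was 0.53, and so do Usp32 (−0.52) and Usp34. Outside chromosome 11 none of the 38 measured Usp genes was over 1.5-fold higher. Of the genes not measured, Usp26 on chromosome X and Usp50 on chromosome 2 were, with log2 ratios of 1.38 and 0.95 from low counts. The part of GC content or of chromosome 11 in the ratios of single genes was not tested.

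In WT cells 65 peaks overlapped exons of Usp genes by at least 1 bp, on 38 of the 50 genes. Among measured genes 35 of 43 had a WT peak (81.4%, interval 67.4 to 90.3), against 57.4% of all measured genes, and 27 had an R255K peak (62.8%) against 43.6%. Exon length has to be read beside these shares, since longer genes had peaks more often. Of the 24 Usp genes with 4 to 8 kb of exon, 18 had a WT peak (75%), against 68.7% of all measured genes of that length. Of the 16 with 8 kb or more, 15 had one (93.8%, interval 71.7 to 98.9), against 78.0%, and Usp40 alone did not. Per 10 kb of exon the median was 1.71 WT peaks for Usp genes and 1.52 for all measured genes. For WT peaks the gap between Usp genes and the rest was thus smaller within a length class than over all lengths. An R255K peak lay on 13 of the 24 (54.2% against 52.3%) and 13 of the 16 (81.3% against 60.8%). The gap for R255K peaks was thus not smaller at 8 kb or more.

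**Figure D2:**
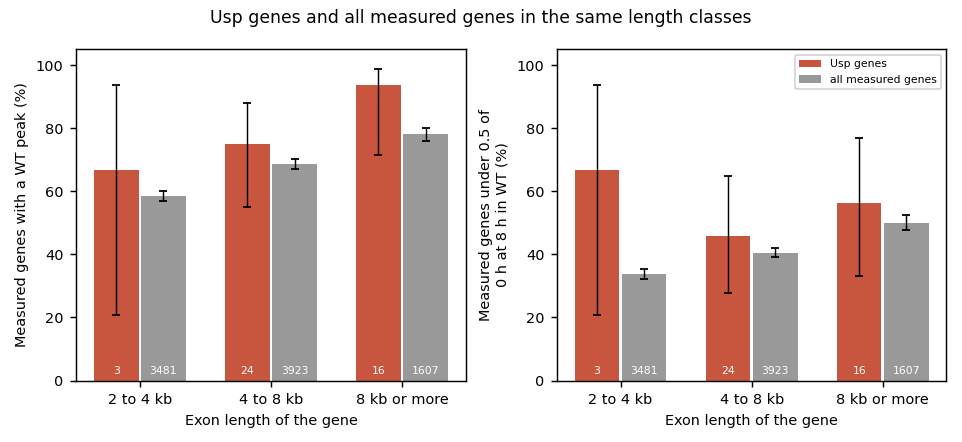
Share of measured genes with a WT peak (left) and share whose WT level at 8 h was under 0.5 of that at 0 h (right), by exon length, for Usp genes (red) and all measured genes (grey); bars start at 0, whiskers are 95% Wilson intervals and white numbers count genes. In the class of 8 kb or more, 93.8% of Usp genes had a WT peak against 78.0%.

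The number of peaks per transcript differed widely within the family. Usp36 and Usp54 had 4 WT peaks each among the measured genes, and Usp29 had 4 among the others. Usp24, Usp34, Usp42 and Usp53 had 3 each. The 8 measured genes with no WT peak were Usp7, Usp11, Usp14, Usp19, Usp22, Usp40, Usp45 and Usp51. Usp7, the most abundant of them in WT with 83.8 FPKM, had no peak on its exons, while Usp35 with 1.40 FPKM carried the strongest.

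The R255K list held 46 peaks on Usp exons, 0.708 times the WT number, against 0.636 for all exonic peaks. Of the 65 WT peaks, 28 had no overlapping R255K peak and are called lost (43.1%, interval 31.8 to 55.2), against 47.9% of all exonic WT peaks. The loss of peaks on Usp genes thus lay near that of other genes, also among those of 4 to 8 kb (42.9% against 46.5%) and of 8 kb or more (41.2% against 50.1%). The lost peaks fell on 21 genes. Of these, 9 lost every WT peak (Usp3, Usp20, Usp21, Usp25, Usp28, Usp32, Usp33, Usp39 and Usp46), and another 17 genes with WT peaks lost none. An R255K peak without a WT counterpart lay on Usp5, Usp26 and Usp32, with fold enrichments of 3.23, 10.9 and 4.54. With 1 list per genotype and unknown read depth behind it, a weakened peak and an undetected one cannot be told apart.

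Lost peaks were weaker ones in the WT list, with a median fold enrichment of 5.02 against 8.65 for the 37 kept peaks, as over all exonic peaks (4.99 and 7.97). Kept peaks were lower in the R255K list for 28 of 37 (75.7%, against 70.6% of all kept exonic peaks), and the median went from 8.65 in WT to 6.12 in R255K. The peak of Usp35, an enzyme found at mitochondria, went from 53.4 to 20.1. That of Usp13, a relative of Usp5, went from 29.9 to 6.66, and that of Usp16, which removes ubiquitin from histone H2A, from 13.9 to 4.65. Those of Usp2 (18.2 to 14.1) and Usp54 (16.02 to 11.8) differed less. A few peaks were as high or higher in R255K. The peak in the last exon of Usp1 went from 8.88 to 16.6, and the main peak of Usp42 stood at 11.4 in both lists. The single peak of Usp9x went from 4.46 to 5.35, and the strongest of Usp34 from 9.17 to 9.42, while the other 2 of Usp34 (5.35 and 5.86 in WT) were lost.

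**Figure D3:**
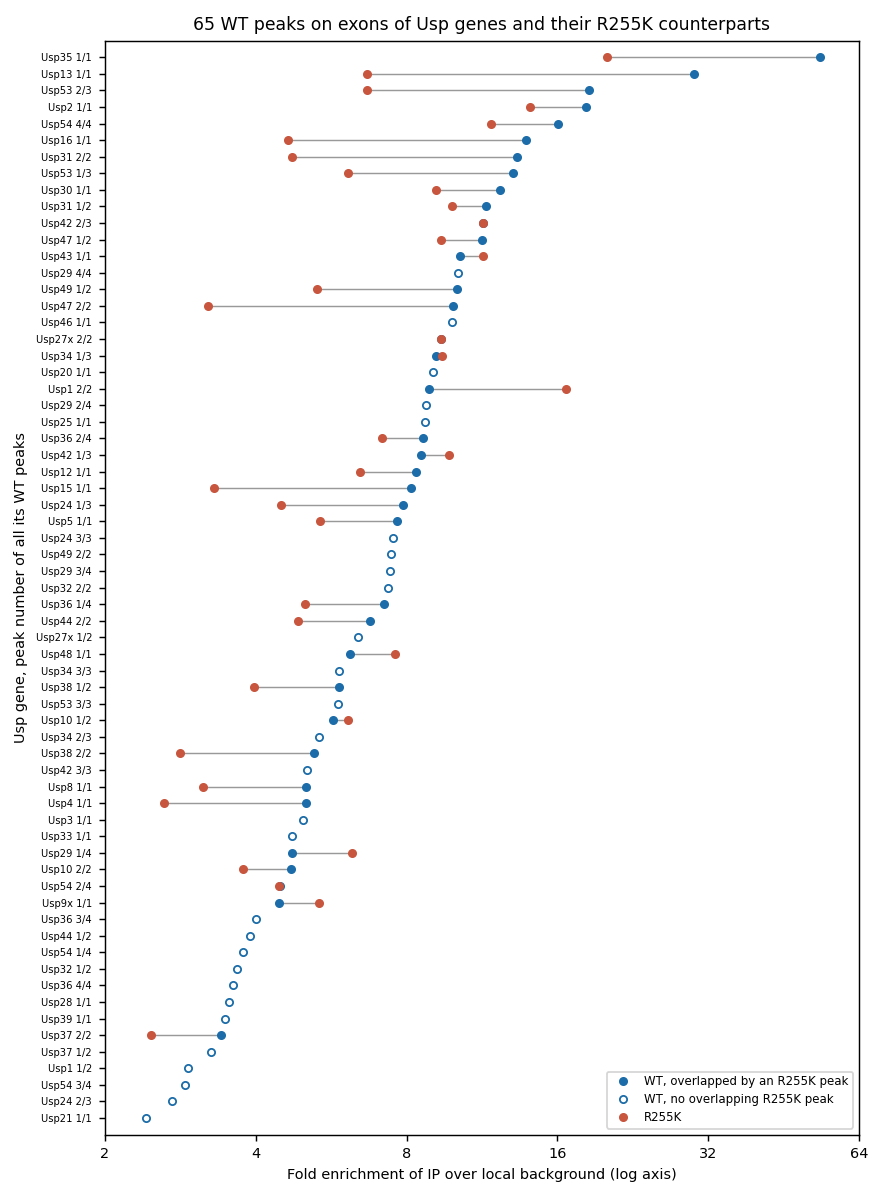
Fold enrichment (log axis) of the 65 WT peaks on Usp exons, 1 line per peak named by gene and peak number, with WT in blue, the overlapping R255K peak in red, and open symbols for WT peaks without one. The 28 open symbols lie at 10.1 or below, and 28 of the 37 joined pairs have R255K to the left of WT.

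By the position of the summit, 36 of the 65 WT peaks lay in coding sequence (55.4%, against 47.9% of all exonic WT peaks), 23 in 3′UTRs (35.4% against 33.8%) and 4 in 5′UTRs. Of the 64 summits inside an exon, 31 lay in the last exon (48.4%, interval 36.6 to 60.4), against 59.5%. Summits within 200 bp of a stop codon made up 24.6%, against 27.6%. Loss was similar in both main classes, with 14 of 36 peaks in coding sequence (38.9%, against 45.0% of all such exonic peaks) and 11 of 23 in 3′UTRs (47.8% against 50.4%), and these intervals overlapped. GGAC on the strand of the gene lay within 100 bp of the summit in 53 of 65 WT peaks (81.5%), against 78.1% of all exonic WT peaks, in 32 of 37 kept peaks (86.5% against 83.0%) and in 21 of 28 lost ones (75% against 72.8%). GGACT, which is part of the same matches, was found in 22 (33.8%) against 38.2%. The Usp15 and Usp39 peaks, at 15 and 166 bp from a stop codon, had no GGAC in this window.

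In WT cells Usp mRNAs lost more of their level over 8 h of actinomycin D than most mRNAs did. These levels are relative to the rest of each library, so 0 means an unchanged share of the library. The median log2 change from 0 to 8 h was −1.03 (interval −1.49 to −0.49), against −0.47 for all measured genes. On the FPKM + 1 scale, which shrinks the change of low genes, the 8 h level was under 0.5 of that at 0 h for 22 of 43 (51.2%, interval 36.8 to 65.4), against 35.2%. On plain FPKM, a count added after seeing the data, it was so for 25 (58.1%) against 43.4%, with Usp35, Usp43 and Usp49 in addition. It was above the 0 h level for 7 (16.3%) against 36.1%. From 4 to 8 h alone the median was −0.33 against −0.22.

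**Figure D4:**
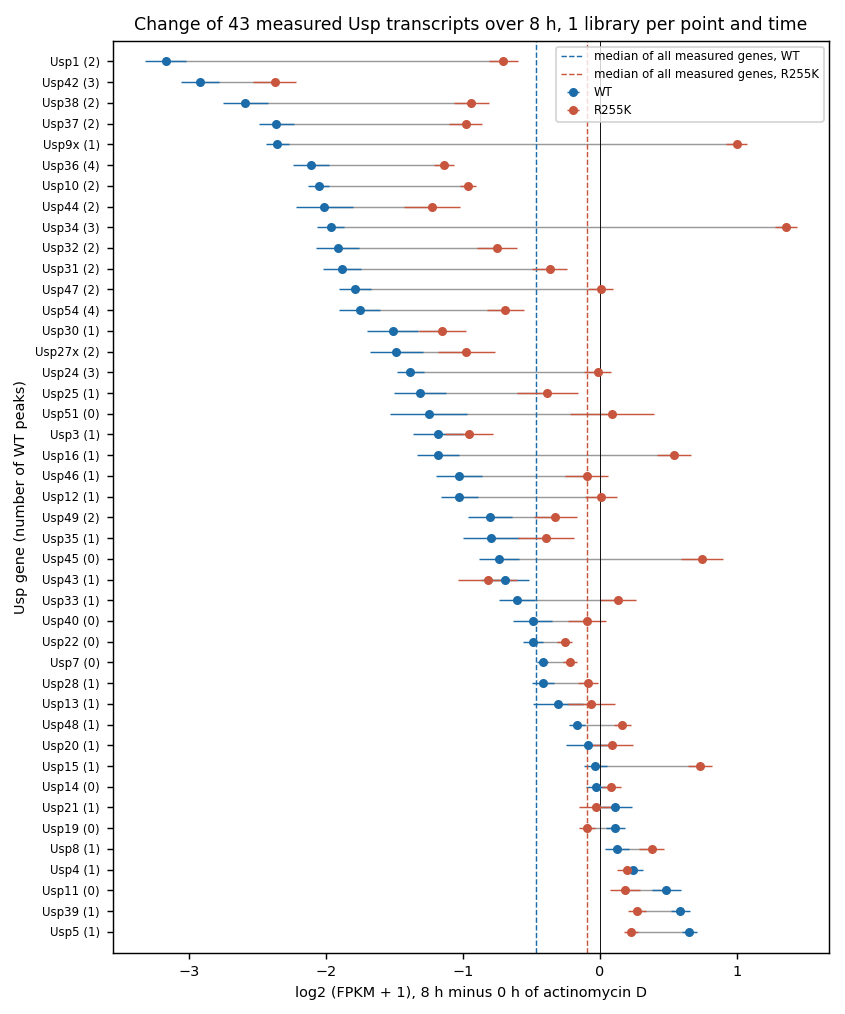
Log2 change in FPKM + 1 from 0 to 8 h for the 43 measured Usp genes in WT (blue) and R255K (red), ordered by the WT value, with the number of WT peaks in brackets; bars are 95% counting intervals and dashed lines the medians of all measured genes. WT points reach from −3.17 (Usp1) to 0.65 (Usp5), and R255K points lie to the right of WT for 36 of 43; scaled to Gapdh, the median difference between them was −0.36 instead of 0.55.

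Usp1 had the largest WT fall on the log2(FPKM + 1) scale. Its level was 57.4, 19.95 and 5.49 FPKM at 0, 4 and 8 h in WT and 27.9, 28.3 and 16.7 FPKM in R255K. That is a log2 change from 0 to 8 h of −3.17 ± 0.076 in WT and −0.70 ± 0.053 in R255K. Usp42, one of the p53 deubiquitinases, was low early in both genotypes, with 7.79, 0.332 and 0.162 FPKM in WT and 8.64, 1.26 and 0.861 in R255K. At 8 h 2.09% of its 0 h level was left in WT and 9.96% in R255K, a short lifetime in either. Usp38 had 16.5, 6.43 and 1.91 FPKM in WT and 11.8, 8.70 and 5.70 in R255K. Usp37, a cell cycle enzyme that acts on cyclin A, had 8.54, 2.11 and 0.856 FPKM in WT and 5.20, 2.78 and 2.14 in R255K. At 8 h 11.6% of Usp38 and 10.0% of Usp37 was left in WT, against 48.1% and 41.2% in R255K.

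Usp9x and Usp34, both among the longest transcripts of the family with 15.1 and 18.5 kb, ran in opposite directions in the genotypes. Usp9x had 25.9, 20.7 and 4.25 FPKM at 0, 4 and 8 h in WT and 6.18, 18.3 and 13.4 in R255K. Usp34 had 8.96, 6.57 and 1.55 FPKM in WT and 3.70, 13.9 and 11.05 in R255K. In both genes the R255K level at 0 h was the lowest of the R255K series, and from 4 to 8 h both genotypes went down. The log2 change from 4 to 8 h was −2.05 in WT and −0.43 in R255K for Usp9x, and −1.57 and −0.30 for Usp34. The GC content of their exons was low, at 39.5% and 39.0%, and with the GC trend of all genes removed the R255K change over 0 to 8 h was 0.91 for Usp9x and 1.26 for Usp34, against 1.001 and 1.36 before.

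A contrasting set held its level. Usp5 stood at 58.3, 81.1 and 92.1 FPKM in WT and 66.9, 69.1 and 78.5 in R255K, and Usp39 at 66.3, 87.9 and 100.03 in WT and 85.2, 94.6 and 103.2 in R255K. Their share of the library was higher at 8 h than at 0 h in both genotypes. The same held for Usp4, Usp8 and Usp11, with WT log2 changes of 0.24, 0.13 and 0.49 and R255K changes of 0.20, 0.38 and 0.18. Usp4 and Usp11 are close relatives that act on TGF-beta receptor signalling, and Usp8 sorts receptors at the endosome. In WT, Usp19 (0.11) and Usp21 (0.11) were the other 2 above 0.

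WT decay went with the number of WT peaks. The 8 Usp genes without a peak had a median log2 change of −0.45 and the 20 with 1 peak −0.51, against −1.96 for the 10 with 2 peaks and −1.97 for the 5 with 3 or more. Over all measured genes the medians were 0.18, −0.73, −1.25 and −1.63 in the same order. Over the last 4 h the Usp medians were −0.32, −0.21, −0.69 and −0.90, and those of all measured genes 0.00075, −0.30, −0.42 and −0.52. In both spans the Usp medians thus stood above those of all genes at 1 peak and below them at 0, 2 and 3 or more. Spearman's coefficient of peak number with WT change from 0 to 8 h was −0.69 over the 43 genes and −0.51 over all measured genes. From 4 to 8 h it was −0.39 and −0.41, so not stronger in Usp genes. Each coefficient is described here for points from the same 2 libraries. The exceptions among Usp genes were clear: Usp9x with 1 weak peak was left at 16.4% at 8 h, and Usp51, without a peak, went from 68 to 5 counts.

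In R255K cells the same mRNAs stayed closer to their 0 h share of the library, a direction that turned with Gapdh scaling. The median log2 change from 0 to 8 h was −0.09, against −0.10 for all measured genes. Scaled to Gapdh, the Usp median was −1.999 in R255K and −1.81 in WT, against −2.03 and −1.45 for all measured genes. From 4 to 8 h alone, the R255K median was −0.16 against −0.08 for all measured genes, so over that span Usp mRNAs were the more reduced at the median. On the FPKM + 1 scale the 8 h level was under 0.5 of that at 0 h for 4 genes, Usp30, Usp36, Usp42 and Usp44 (9.30%, interval 3.68 to 21.6), against 15.2%. On plain FPKM it was so for 9 (20.9%) against 22.6%, with Usp3, Usp27x, Usp37, Usp38 and Usp43 in addition. It was above it for 17 (39.5%) against 43.7%. The R255K change was higher than the WT change for 36 of 43 genes (83.7%, against 64.7% of all measured genes). It was over 1.5-fold higher for 21 (48.8%, interval 34.6 to 63.2), against 34.3%, and over 1.5-fold lower for 0 (interval up to 8.20%), against 7.44%. The median difference was 0.55 against 0.27.

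After Usp9x (3.36 ± 0.058) and Usp34 (3.32 ± 0.065), the difference was largest for Usp1 (2.47 ± 0.093), Usp47 (1.79 ± 0.078) and Usp16 (1.72 ± 0.10). Usp47, which acts on DNA polymerase beta, had 6.53, 3.46 and 1.18 FPKM at 0, 4 and 8 h in WT and 5.52, 7.71 and 5.55 in R255K. Usp16 had 3.87, 1.89 and 1.15 FPKM in WT and 3.56, 5.45 and 5.62 in R255K. Both were reduced at each later time in WT and at neither in R255K. The lowest differences belonged to Usp5 (−0.42 ± 0.039), Usp39 (−0.31 ± 0.049), Usp11 (−0.30 ± 0.079), Usp19 (−0.21 ± 0.047) and Usp21 (−0.14 ± 0.087), whose levels were held or higher in WT. Usp36 and Usp22 on chromosome 11 differed by 0.97 ± 0.077 and 0.23 ± 0.047, with WT levels of 15.98, 6.76 and 2.94 FPKM for Usp36 and 45.0, 45.1 and 31.8 for Usp22. In R255K these were 32.01, 16.5 and 13.99 FPKM and 71.3, 61.3 and 59.5. Usp32 had 7.31, 2.10 and 1.21 FPKM in WT and 4.78, 3.63 and 2.43 in R255K (1.16 ± 0.11), and Usp43 was at 4 counts by 4 h in WT.

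From 4 to 8 h, a span of 4 h that leaves out the 0 h libraries, the R255K change was higher for 33 of 43 genes (76.7%, against 65% of all measured genes), by over 1.5-fold for 8 (18.6%, interval 9.74 to 32.6) against 11.3% of all measured genes, and over 1.5-fold lower for 0 against 1.81%. The 8 were Usp1, Usp9x, Usp10, Usp34, Usp36, Usp38, Usp47 and Usp51, and the median difference was 0.23 against 0.12. As half-lives from 4 to 8 h only, 24 of 31 ratios of R255K to WT exceeded 1.5, with a median of 2.88. The share over all measured genes was not computed for this span, so the count cannot be set against other genes. Usp10, which binds the stress granule protein G3BP1, had 23.4 and 9.26 FPKM at 4 and 8 h in WT and 28.7 and 21.2 in R255K. With GC content the difference over 0 to 8 h had a Spearman coefficient of −0.59 over the 43 genes, and that over 4 to 8 h one of −0.23. The 4 to 8 h changes themselves rose with GC content in each genotype, with coefficients of 0.42 in WT and 0.40 in R255K over the 43 genes.

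**Figure D5:**
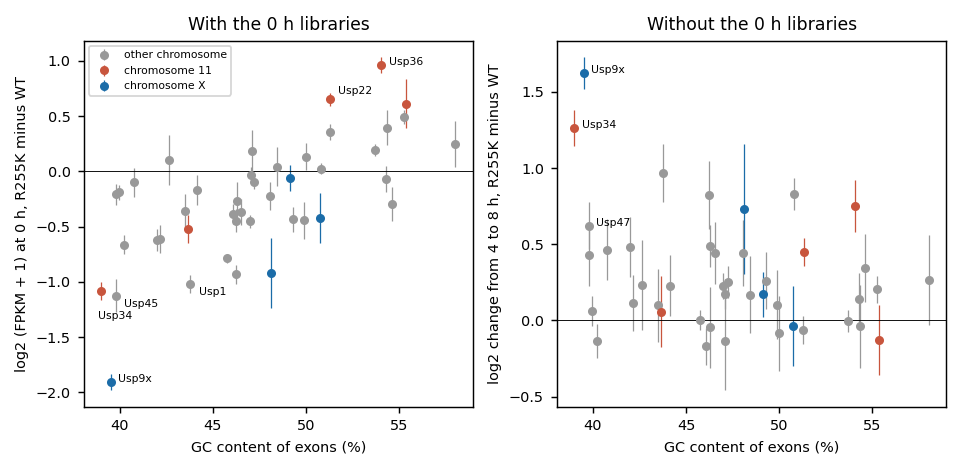
GC content of the exons (x axis) against the log2 ratio of R255K to WT at 0 h (left) and against the difference between genotypes in the log2 change from 4 to 8 h (right) for the 43 measured Usp genes, with chromosome 11 in red, chromosome X in blue and 95% counting intervals. On the left the points rise from Usp9x at −1.91 to Usp36 at 0.96, and on the right Usp9x and Usp34 stand highest, at 1.62 and 1.26.

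Above 4 kb of exon, the Usp share under 0.5 in WT lay closer to that of all genes within a length class than over all lengths. So did the share with a higher change in R255K, while the share under 0.5 in R255K did not at 8 kb or more. All are on the FPKM + 1 scale. At 4 to 8 kb, 11 of 24 Usp genes were under 0.5 of their 0 h level at 8 h in WT (45.8% against 40.6%), and 8 had a change over 1.5-fold higher in R255K (33.3% against 39.5%). At 8 kb or more, 9 of 16 were under 0.5 in WT (56.3% against 50.03%) and 11 had the higher change in R255K (68.8% against 58.7%). Under 0.5 in R255K were 4 of the 24 (16.7% against 16.5%) and 0 of the 16 (against 12.5%). Over all lengths that share was 9.30% against 15.2%. At 0 h, 2 of the 24 and 6 of the 16 were over 1.5-fold lower in R255K (8.33% against 16.5%, and 37.5% against 30.9%). None of these gaps exceeded the interval of the Usp share. The 3 Usp genes of 2 to 4 kb, Usp1, Usp39 and Usp51, stood farther from their class: 2 of them were under 0.5 in WT (66.7% against 33.6%), had the higher change in R255K (against 28.7%) and were lower at 0 h (interval 20.8 to 93.9, against 10.9%). Over 4 to 8 h the median difference between genotypes was 0.12 against 0.16 at 4 to 8 kb and 0.44 against 0.24 at 8 kb or more. With the length trend of all genes removed, 23 of the 43 lay above the all-gene median of the difference, compared with 29 before. TMM, ribosomal protein and Gapdh scaling moved the all-gene median of the 0 to 8 h difference from 0.27 to 0.02, 0.63 and −0.60, and the Usp median from 0.55 to 0.42, 0.83 and −0.36. Over 4 to 8 h they moved the all-gene median from 0.12 to −0.008, 0.21 and 1.91, and the Usp median from 0.23 to 0.06, 0.32 and 1.93. Gapdh scaling thus lowered the difference over 0 to 8 h and raised it over 4 to 8 h.

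A half-life, from the mean of the rates over 0 to 4 h and 0 to 8 h, could be computed in both genotypes for 23 genes (53.5%, against 46.8% of all measured genes with an estimate), since the rest did not decline relative to their library in at least 1 genotype. The half-life was over 1.5 times longer in R255K for 20 of 23 (87.0%, interval 67.9 to 95.5), against 68.8%. In a count added after seeing the data, the lower counting limit of the ratio was itself over 1.5 for 11 of the 23 (47.8% against 39.7%). For Usp7, Usp13, Usp20, Usp25, Usp40 and Usp46 no upper limit could be set on the R255K half-life. The median ratio was 2.46 (interval 1.77 to 4.27) against 1.98. Scaled to Gapdh the median ratio was 0.684 and 0 of 23 exceeded 1.5. Usp42 had the shortest, at 1.09 h in WT (interval 1.00 to 1.19) and 1.80 h in R255K (1.68 to 1.94). The half-life of Usp44, known from the spindle checkpoint and histone H2B, was 1.57 h and 3.90 h. Usp1 had 2.49 h (2.38 to 2.60) and 22.8 h (16.7 to 36.3), and Usp38 2.75 h and 8.23 h. Usp36 had 3.25 h and 5.16 h, and Usp10 4.18 h and 7.55 h. Usp3, another histone H2A enzyme, had a ratio of 1.34 (interval 0.999 to 1.79) and Usp22 of 0.707 (0.466 to 1.07). The ratio was under 1/1.5 for 1 gene, Usp20 (4.35%, against 5.78%), whose WT rate was near 0. No upper limit could be set on its half-life in either genotype.

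By role, all 3 partners of UAF1 had under 0.5 of their 0 h FPKM at 8 h in WT, as had 43.4% of all measured genes. Usp12 was left at 46.1% at 8 h in WT and at 100.6% in R255K, Usp46 at 34.4% and 91.0%, and Usp1 at 9.56% and 60.0%. The difference between genotypes in log2 change from 0 to 8 h was 1.03 for Usp12, 0.93 for Usp46 and 2.47 for Usp1. From 4 to 8 h it was smaller, at 0.26 ± 0.095 for Usp12, 0.099 ± 0.12 for Usp46 and 0.97 ± 0.098 for Usp1. Each had a WT peak (against 57.4% of all measured genes), and those on Usp46 and the weaker of 2 on Usp1 were lost. Of the 8 histone H2A or H2B enzymes, 6 had under 0.5 of their 0 h FPKM at 8 h in WT (Usp3, Usp16, Usp27x, Usp44, Usp49 and Usp51) and 3 in R255K (Usp3, Usp27x and Usp44). On the FPKM + 1 scale these were 5, without Usp49, and 1, Usp44. The WT and R255K shares over all measured genes were 43.4% and 22.6% on plain FPKM, and 35.2% and 15.2% on FPKM + 1. Usp27x and Usp51, which share the SAGA adaptor proteins with Usp22, had 6.84% and 9.28% left in WT, against 70.7% for Usp22 itself. In R255K the shares were 15.9%, 119.5% and 83.4%, the second from 16 and 23 counts. Usp49, on histone H2B, had 26.7% left in WT and 52.98% in R255K.

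The enzymes for free ubiquitin and the proteasome were steadier. Usp5, Usp13 and Usp14, the last bound to the proteasome, had 158%, 66.3% and 97.9% left at 8 h in WT, and 117%, 92.7% and 106% in R255K. The TGF-beta group of Usp4, Usp9x, Usp11 and Usp15 had 1 WT peak on each of 3 genes, and an R255K peak overlapped each, numbers too small to set against the 47.9% lost over all exonic WT peaks. Usp15 had 7.22, 6.58 and 7.03 FPKM in WT and 4.19, 7.92 and 7.61 in R255K, with a steady level in WT. Its peak beside the stop codon was lower in R255K, at 3.30 against 8.18.

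Of the p53 and DNA damage group (Usp1, Usp7, Usp10, Usp11, Usp28, Usp42, Usp47 and Usp48), 4 were under 0.5 at 8 h in WT and 1 in R255K on either scale. Over all measured genes the shares were 43.4% and 22.6% on plain FPKM, and 35.2% and 15.2% on FPKM + 1. Usp7 was left at 74.5% in WT and 85.6% in R255K, Usp28 at 74.2% and 94.1%, and Usp48 at 88.6% and 113%. In the endosome and traffic group, only Usp32 was under 0.5 in WT on either scale, while Usp8 (109%), Usp20 (91.3%) and Usp33 (59.4%) were not (against the same 43.4% and 35.2% of all measured genes). Each of the 4 had a WT peak (against 57.4% of all measured genes). The peaks on Usp20, Usp32 and Usp33 were lost and that on Usp8 was kept, numbers too small to set against the 47.9% lost over all exonic WT peaks. Usp30 and Usp35 were left at 15.1% and 27.4% in WT and at 33.1% and 63.0% in R255K, and the single WT peak on each was kept, again too few to compare. The remaining measured genes, Usp24, Usp25, Usp31, Usp40, Usp45 and Usp54, were left at 6.49% (Usp25, from 136 to 7 counts) to 56.4% (Usp40) in WT, and at 53.1% (Usp54) to 189% (Usp45) in R255K.

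Neighbouring genes share sequence with some of these. Exons of Usp49 overlapped those of Gm20517 over 51.2% of their length, Usp38 those of Gm9725 over 20.5%, Usp33 those of Gm43857 over 15.3%, Usp29 those of Zim3 over 14.3%, Usp43 those of 9130017K11Rik over 12.8% and Usp34 those of Ahsa2 over 11.6%. Of these neighbours only Ahsa2 had more than 12 counts in either 0 h library (270 in WT and 335 in R255K). Reads and peaks in such stretches may belong to the neighbour, and the counting of strand is not given in the sources used here. Usp16 shared 192 bp with Cct8, an abundant mRNA of 14409 counts in WT at 0 h.

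Other deubiquitinases, from a list of 48 symbols of the UCH, OTU, Josephin, JAMM and MINDY families and a few relatives of the Usp genes under other names, were milder in WT decay but not in every measure. Of these, 29 were measured, and at 0 h 2 were over 1.5-fold higher in R255K (against 17% of all measured genes) and 8 lower (against 15.7%). Of the 43 Usp genes 3 were higher and 10 lower, so this 0 h pattern was not particular to Usp genes. On the FPKM + 1 scale 9 were under 0.5 at 8 h in WT (against 35.2% of all measured genes) and 4 in R255K (against 15.2%), and on plain FPKM 10 and 7 (against 43.4% and 22.6%). The median log2 changes were −0.43 and −0.11. The R255K change was over 1.5-fold higher than the WT change for 13 (against 34.3%) and lower for 1 (against 7.44%). A WT peak lay on 20 (69.0%, against 57.4% of all measured genes). Within the list, the OTU family had a WT median of −1.55 over 11 genes, 10 of which had a WT peak, and the JAMM family, which holds the proteasome subunit gene Psmd14, one of 0.55 over 6 genes, 2 of which had a WT peak.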

How the data were processed

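MeRIP-seq and lifetime libraries of both genotypes were used as deposited. The authors removed rRNA reads (Bowtie2 2.2.6), aligned to mm10 with HISAT2, kept unique reads (Picard 2.16.0, SAMtools 0.1.09) and called peaks with MACS2. The counts per gene were deposited by the authors without normalization; the counting tool, annotation and strand setting are not given in the sources used here. The peak lists deposited by the authors hold fold enrichment over local background (a ratio) and −log10 q. How replicates were combined is likewise not given.

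FPKM used summed counts and the exon length in the tables, with a pseudocount of 1 FPKM for log2 values and a floor of 3 counts for half-lives. Summits were placed on GENCODE vM21 and motifs read from GRCm38.p6. Intervals are Wilson (shares), order-statistic (medians) or Poisson counting intervals. Trends used lowess (span 0.3). Python 3.11.15, pandas 2.3.3, statsmodels 0.14.6, pysam 0.24.0 and bedtools 2.31.1 were used, and edgeR 4.0.16 in R 4.3.3 only for TMM factors. Scripts were tested on simulated data. Members and lists were chosen with earlier results of these data known. Full values were given for genes at the 5 highest or lowest ranks of level, 0 h ratio, WT decay, difference in decay and peak number, for those on chromosome 11, and for the 6 genes with the strongest lost and kept peaks; others were named to account for all members.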

Additional observations from a re-analysis of the deposited data

Results flagged for a closer look

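Of 12 Usp genes whose level at 8 h was below that at 0 h in WT and above it in R255K, 3 differed from 0 h by over 1.5-fold in both genotypes, and the difference between the genotypes was not tested because each value rests on 1 library. Usp16, with −1.18 in WT and 0.54 in R255K, fell just short of that limit in R255K, and its difference was 1.72. The difference in log2 change from 0 to 8 h was 3.36 for Usp9x, 3.32 for Usp34 and 1.48 for Usp45. From 4 to 8 h all 3 went down in both genotypes, and the differences were 1.62, 1.26 and 0.43. With the GC trend of all genes removed, the differences over 0 to 8 h were 2.77, 2.70 and 0.92. The GC contents of the exons were 39.5%, 39.0% and 39.8%, and the exon lengths 15.1, 18.5 and 6.23 kb. The part of base composition or length was not tested.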

How the results depend on the processing

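Of 83 recomputed values, 58 stayed within the interval of the reported median or share, or within 1.5 times the reported count, 21 went beyond and 4 changed direction (across 0 for a log2 value, across 1 for a half-life ratio). Among the 58, the WT median change was −0.616 with TMM, −0.613 at a minimum of 5 FPKM and −0.631 with the length trend removed, and the median half-life ratio was 4.27 with infinite half-lives kept. In each case the cause was not tested unless the setting itself changed the number of genes. With TMM scaling the R255K median change over 8 h was 0.0139 and 13 of 18 genes had a half-life ratio over 1.5. Scaled to 84 ribosomal protein genes, 1 gene was over 1.5-fold higher at 0 h and the WT median change was −1.50. Scaled to Gapdh, the median 0 h ratio was 1.015, with 36 genes higher and 1 lower, the median changes were −1.81 in WT and −1.999 in R255K, and 0 of 23 half-life ratios exceeded 1.5 (median 0.684). A pseudocount of 0.1 gave a WT median of −1.63. A minimum of 5 FPKM left 26 genes, with 8 of 9 ratios over 1.5, and no minimum gave 5 genes higher at 0 h. With mRNAs that did not decline kept at an infinite half-life, 32 of 37 ratios exceeded 1.5. With the GC trend removed 1 gene was higher at 0 h and 5 lower. With the length trend removed the median 0 h ratio was −0.0239 with 4 genes lower, the R255K median change was 0.0309, and 13 of 17 half-life ratios exceeded 1.5 (median 1.75). Without chromosome 11, 0 measured genes were higher at 0 h. GGAC within 50 bp of the summit was found in 66.2% of WT peaks. The peak counts and the share lost kept within their limits under every overlap and threshold tried. From 4 to 8 h with the GC trend removed, chosen after seeing the data, 25 of 31 ratios exceeded 1.5. Half-life ratios over all measured genes were not computed under these settings. No paired analysis was possible because the peak lists pool the replicates and the lifetime libraries number 1 per genotype and time. Depth limits genes such as Usp43 and Usp51, with 4 and 5 counts in their lowest libraries.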

Other observations

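Of 7 genes for proteins that work with ubiquitin-specific proteases, 3 were under 0.5 of their 0 h level at 8 h in WT and 1 in R255K, and 5 had a WT peak. Over all measured genes, 43.4% and 22.6% were under 0.5 on plain FPKM, and 57.4% had a WT peak. Wdr48, which encodes UAF1, the partner of USP1, USP12 and USP46, had 8.41, 4.32 and 1.91 FPKM at 0, 4 and 8 h in WT and 9.62, 8.90 and 6.94 in R255K. Both of its WT peaks were without an R255K counterpart. Wdr20, a further partner of USP12 and USP46, had 5.64, 1.34 and 0.738 FPKM in WT and 3.90, 1.52 and 0.969 in R255K. Atxn7l3, the SAGA adaptor shared by USP22, USP27X and USP51, had 49.3, 36.4 and 21.5 FPKM in WT and 69.0, 45.7 and 37.6 in R255K, and Eny2, the other adaptor, was at 8 h above its 0 h level in both. Gmps, which binds USP7, had no peak and 25.5, 29.2 and 23.2 FPKM in WT against 18.0, 29.9 and 27.5 in R255K. G3bp1, the partner of USP10, stood between 120.5 and 127.4 FPKM in the WT and between 181 and 184 FPKM in the R255K libraries.

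Outside the exons of the gene itself, the body of Usp7 held an R255K peak with a fold enrichment of 2.92 on no annotated exon, and the Usp8 peak lies within the body of Usp50 on the opposite strand.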
